A study of Mus musculus with 5 samples.

Results

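Transcripts of 10 genes that restrain MAP kinase signalling were examined in mouse fat cells given small molecules: the dual specificity phosphatase genes Dusp1, Dusp4, Dusp5, Dusp6, Dusp8, Dusp10, Dusp14 and Dusp16, and the Sprouty genes Spry2 and Spry4. They were taken by name, as every probe set whose platform annotation lists 1 of these symbols alone, which gave 18 probe sets for 10 of the 18193 genes measured. The genes had been picked with their differences on these arrays already known, so the differences below are a description and no test was made of them. C3H10T1/2 cells are a mouse mesenchymal line that forms fat cells in culture, and here, after full differentiation to adipocytes, they were exposed for 6 h to a compound (butein, sulfuretin or resveratrol) or to DMSO, the solvent. Each of the 5 groups was 1 Affymetrix array of total RNA: DMSO, butein and sulfuretin, and a second solvent culture, called DMSO1, which the labels name as the control of resveratrol. All groups were of this 1 line, and the labels give no dose and no replicate culture.

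MAP kinases pass signals from growth factors, cytokines and stress to the nucleus, and they are active while a threonine and a tyrosine in their activation loop are phosphorylated. MAP kinase phosphatases remove both phosphates. Many are made only after the kinases have been switched on, so that they close a feedback loop. Sprouty proteins act further up, between growth factor receptors and the ERK kinases, and many Sprouty transcripts are themselves induced by ERK signalling. In fat cells ERK, JNK and p38 signalling is known to affect lipolysis, insulin action and differentiation.

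Intensities were on a linear scale. A probe set was counted when its highest value reached a floor of 8.39, the middle of the average probe set level over all 45037 probe sets, and 22340 single-gene probe sets were counted. The authors' values fall into 2 sets with different scales, with array medians of 6.85 for DMSO, butein and sulfuretin, 11.1 for DMSO1 and 11.5 for resveratrol. Butein and sulfuretin were therefore set against DMSO, and resveratrol against DMSO1. All 9 adipocyte markers with values, among them Adipoq, Fabp4, Lpl and Pparg, were above the floor on every array. Their summed intensities ran from 21465 with butein to 26057 in DMSO1. Against their own DMSO array, 8 of the 9 were lower with butein (median log2 difference -0.23), 3 with sulfuretin (0.01) and all 9 with resveratrol (-0.11). Of all counted genes 37.1%, 32.6% and 34.0% were lower with these compounds. Blood cell markers summed to between 39.5 and 52.7. Of these Ptprc, Adgre1 and Itgam were under the floor throughout, and Csf1r was above it on every array (15.2 to 21.1). Cd68 and Lyz2 were above it in DMSO1 and with resveratrol only. Endothelial markers summed to between 20.9 and 30.3, with Kdr the only 1 of 4 above the floor. Skeletal muscle markers summed to 129 in DMSO, 101 with butein, 110 with sulfuretin, 256 in DMSO1 and 241 with resveratrol. Of these markers Acta1 (45.3 to 179), Des (31.2 to 47.1) and Ckm (10.1 to 18.4) were above the floor on every array. Myod1, Myog and Myh3 were under it. Osteoblast and chondrocyte markers summed to between 127 and 178 and mesenchymal progenitor markers to between 482 and 539, the latter mostly Pdgfra. The part of these shifts in the results was not tested, and on bulk arrays fewer cells of a type and less RNA per cell cannot be told apart.

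Of the 18 probe sets, 14 were counted, at least 1 for each of the 10 genes. The other 4, which are 1 of Dusp16 and 3 of Spry4, stayed between 2.20 and 7.75 on all arrays. Of the counted probe sets, 1417163_at of Dusp10 (8.37 to 8.58 in the first set) and 1421656_at of Spry2 (11.9 in the first set) had a mean under the floor and passed through their highest arrays alone. Equal values on 2 arrays were common. Over all counted probe sets 33.4% were equal between butein and DMSO, 35.6% between sulfuretin and DMSO and 35.3% between resveratrol and DMSO1. Among the 14 these were 2, 3 and 3, so an equal value says little about a gene.

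**Figure D1:**
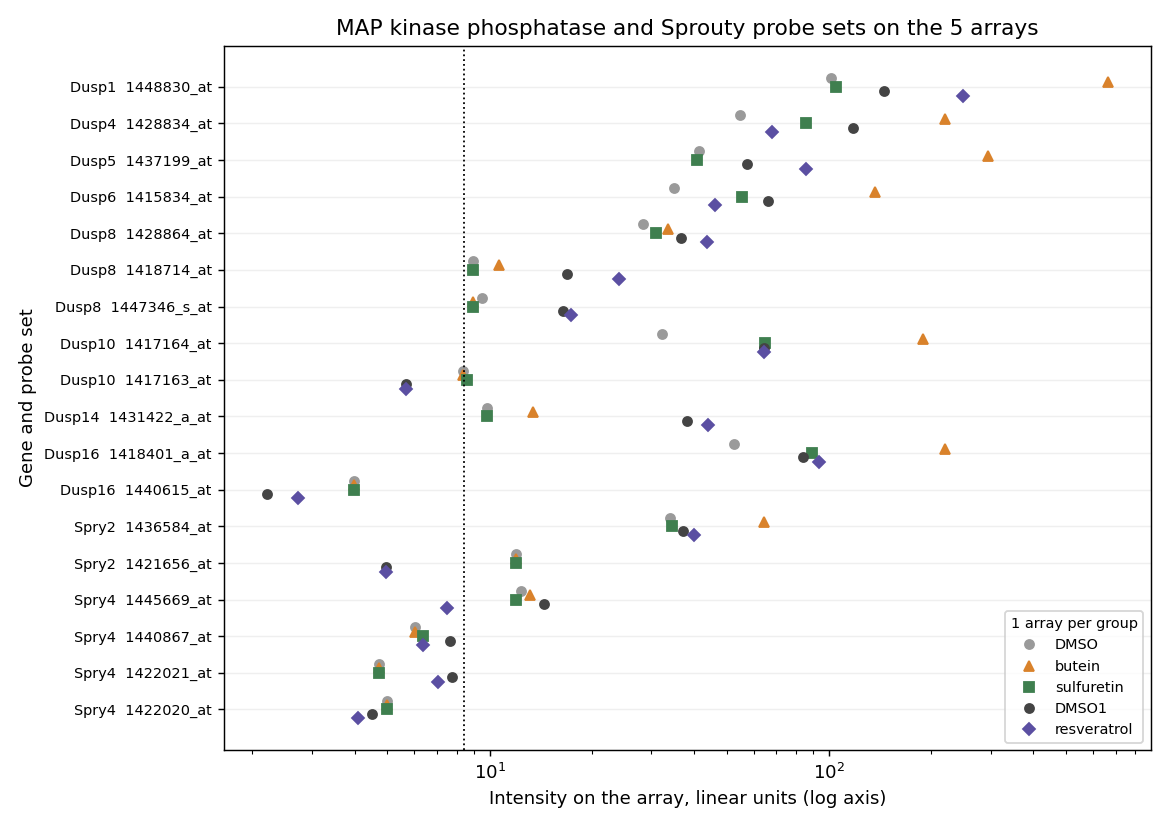
Intensity of each of the 18 probe sets on each of the 5 arrays, on a log axis, with 1 symbol per array and the floor of 8.39 as a dotted line. The butein array is set apart to the right for Dusp1, Dusp4, Dusp5, Dusp6, Dusp10 (1417164_at) and Dusp16 (1418401_a_at), and less so for Spry2 (1436584_at).

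Butein gave the largest differences. On 6 of the 14 counted probe sets, 1 for each of Dusp1, Dusp4, Dusp5, Dusp6, Dusp10 and Dusp16, the intensity was at least 2-fold higher than in DMSO, and on none was it 2-fold lower. Over all counted probe sets 1.9% were 2-fold higher and 0.363% 2-fold lower. At 1.5-fold Spry2 joined them, which made 7 of the 14 higher and 0 lower, against 4.96% and 2.49% of all. The median log2 difference of the 14 was 0.69, against 0 over all counted probe sets, but these genes had been chosen with that comparison in view. With the brightest probe set of each gene, all 10 genes were higher with butein, against 33.0% of all counted genes, and their median was 1.99. Against DMSO1 as deposited, on its other scale, Dusp14, Spry4 and Dusp8 turned downward, to -1.51, -0.14 and -0.12.

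Dusp5 encodes a nuclear phosphatase that acts on ERK. Its probe set 1437199_at read 41.3 in DMSO, 295 with butein, 40.8 with sulfuretin, 57.4 in DMSO1 and 85.8 with resveratrol. The butein array alone stood high, the sulfuretin array lay next to its control, and resveratrol lay above DMSO1. The log2 difference was 2.83 with butein, a 7.13-fold higher level, -0.02 with sulfuretin and 0.58 with resveratrol.

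Dusp1 encodes MKP-1, a nuclear phosphatase of p38, JNK and ERK that is known as an immediate early gene. Its only probe set, 1448830_at, read 101 in DMSO, 667 with butein, 105 with sulfuretin, 145 in DMSO1 and 248 with resveratrol. The order of the arrays was the same as for Dusp5 apart from sulfuretin, which was here just above DMSO. Dusp1 was 6.58-fold higher with butein, 1.04-fold higher with sulfuretin and 1.70-fold higher with resveratrol.

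Start regions are shown for the 3 genes with the largest butein differences, Dusp5, Dusp1 and Dusp10, and for Dusp8, which was 1.19-fold higher with butein and holds the same cAMP response element as Dusp1. Sequences are RefSeq promoter windows of mouse GRCm38.p6, which held 8 of the 10 genes, and each stretch is 120 bases before an annotated start, with positions counted back from that start. Capitals mark the cAMP response element TGACGTCA, its core TGACG, which lies within it, and the CArG box, the site of serum response factor.
Dusp1, chr17:26508563-26508682, minus strand, bases -210 to -91: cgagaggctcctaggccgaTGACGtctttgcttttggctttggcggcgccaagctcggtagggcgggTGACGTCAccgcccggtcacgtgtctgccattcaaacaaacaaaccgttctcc
Dusp5, chr19:53529015-53529134, plus strand, bases -130 to -11: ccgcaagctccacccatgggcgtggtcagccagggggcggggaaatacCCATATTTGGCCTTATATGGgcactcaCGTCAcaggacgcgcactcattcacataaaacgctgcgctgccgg
Dusp8, chr7:142095295-142095414, minus strand, bases -130 to -11: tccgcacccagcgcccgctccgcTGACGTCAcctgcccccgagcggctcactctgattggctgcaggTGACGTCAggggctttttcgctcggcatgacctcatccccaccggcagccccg
Dusp10, chr1:184034251-184034370, plus strand, bases -130 to -11: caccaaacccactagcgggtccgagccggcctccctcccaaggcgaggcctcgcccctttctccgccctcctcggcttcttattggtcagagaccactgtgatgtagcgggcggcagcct
Both strands were searched, over 300 bases from 250 before to 50 after the start. TGACGTCA lay in the windows of Dusp1 (1 match) and Dusp8 (2 matches), and in 1.79% of all 32851 promoter windows. The core TGACG lay in those of Dusp1, Dusp5, Dusp8 and Dusp16, and in 20.8% of all windows. The CArG box lay in the Dusp5 window alone among the 8, as 2 adjoining matches from base -82 to base -63, and in 1.63% of all windows. The antioxidant response element TGACNNNGC, whose first letters can overlap the core TGACG but did not here, lay in the windows of Dusp1 and Dusp5 and in 12.4% of all windows. The heat shock element GAANNTTC lay in that of Dusp16 and in 7.86% of all windows. The AP-1 site TGANTCA and the ETS site CCGGAAG lay in none of the 8, against 7.81% and 8.86% of all windows. The Dusp10 stretch has no capitals. These matches describe letters and do not show binding, and no link between motifs and differences was tested.

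Dusp4 encodes MKP-2, a nuclear phosphatase of ERK and JNK, and Dusp6 encodes MKP-3, a cytoplasmic phosphatase of ERK. Probe set 1428834_at of Dusp4 read 54.6 in DMSO, 219 with butein, 85.4 with sulfuretin, 118 in DMSO1 and 68.0 with resveratrol. Probe set 1415834_at of Dusp6 read 34.9 in DMSO, 137 with butein, 55.6 with sulfuretin, 66.3 in DMSO1 and 46.1 with resveratrol. In both genes butein was highest and sulfuretin lay between DMSO and butein. Resveratrol lay below DMSO1 in both. Dusp4 was 4.01-fold higher with butein, 1.56-fold higher with sulfuretin and 1.73-fold lower with resveratrol, and Dusp6 was 3.93-fold higher, 1.59-fold higher and 1.44-fold lower. With DMSO1 as the control of butein, on its other scale, Dusp4 had a log2 difference of 0.90, short of 2-fold.

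Dusp10 and Dusp16 encode MKP-5 and MKP-7, which act on the stress kinases JNK and p38. Probe set 1417164_at of Dusp10 read 32.1 in DMSO, 189 with butein, 64.6 with sulfuretin and 64.4 in both DMSO1 and resveratrol. It was 5.89-fold higher with butein, 2.01-fold higher with sulfuretin and equal between resveratrol and DMSO1. Its other probe set, 1417163_at, annotated to the same RefSeq transcript, had the same value of 8.37 in DMSO and with butein. Probe set 1418401_a_at of Dusp16 read 52.5 in DMSO, 219 with butein, 89.0 with sulfuretin, 83.8 in DMSO1 and 93.4 with resveratrol. It was 4.17-fold higher with butein, 1.69-fold with sulfuretin and 1.11-fold with resveratrol. The second Dusp16 probe set, 1440615_at, was under the floor and equal on the 3 arrays of its set at 3.99. For Dusp10 and Dusp16 the butein difference thus rests on 1 of 2 probe sets each.

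Dusp8 and Dusp14 differed little. Dusp8 encodes a phosphatase of JNK and p38, and Dusp14 a small phosphatase without the kinase-binding domain that most of the family have. The brightest Dusp8 probe set, 1428864_at, read 28.3 in DMSO, 33.6 with butein, 31.0 with sulfuretin, 36.6 in DMSO1 and 43.8 with resveratrol, and its 3 log2 differences were 0.25, 0.13 and 0.26. The dimmer 1418714_at read 8.95, 10.6, 8.95, 16.9 and 24.1 in the same order and was 1.42-fold higher with resveratrol. The third, 1447346_s_at, read 9.48, 8.95, 8.95, 16.4 and 17.4, so that with butein it was 1.06-fold lower. Probe set 1431422_a_at of Dusp14 read 9.81 in DMSO, 13.4 with butein, 9.81 with sulfuretin, 38.1 in DMSO1 and 44.2 with resveratrol. Here the gap between the solvent arrays as deposited, 3.88-fold, exceeded every treatment difference, of which the largest was 1.37-fold with butein. That gap carries the difference between the scales of the 2 sets. After joint quantile normalization it was a log2 difference of 1.10, beside 0.44 for butein against DMSO. The butein difference of 0.45 turned to -0.66 against DMSO1 after joint quantile normalization and to -1.51, past 2-fold lower, against DMSO1 as deposited.

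Against their own DMSO array the Sprouty genes did not reach 2-fold on any probe set. Probe set 1436584_at of Spry2 read 34.0 in DMSO, 64.3 with butein, 34.5 with sulfuretin, 37.2 in DMSO1 and 40.1 with resveratrol. Its 1.89-fold higher level with butein was the largest just short of 2-fold, and the smallest past it was that of Dusp6. After joint quantile normalization its log2 difference was 1.497 against DMSO1 and 1.16 against the mean of both DMSO arrays, both past 2-fold. The other Spry2 probe set, 1421656_at, had the same value of 11.9 in DMSO, butein and sulfuretin and 4.94 in DMSO1 and resveratrol. Spry4 was dim: its brightest probe set, 1445669_at, read 12.3 in DMSO, 13.1 with butein, 11.9 with sulfuretin, 14.4 in DMSO1 and 7.50 with resveratrol. The resveratrol array was the only 1 under the floor there, and the level was 1.92-fold lower than in DMSO1. The other Spry4 probe sets, 1440867_at, 1422021_at and 1422020_at, were also lower with resveratrol, by 1.20-fold, 1.10-fold and 1.09-fold, at levels under the floor. With butein all 3 equalled their DMSO value.

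**Figure D2:**
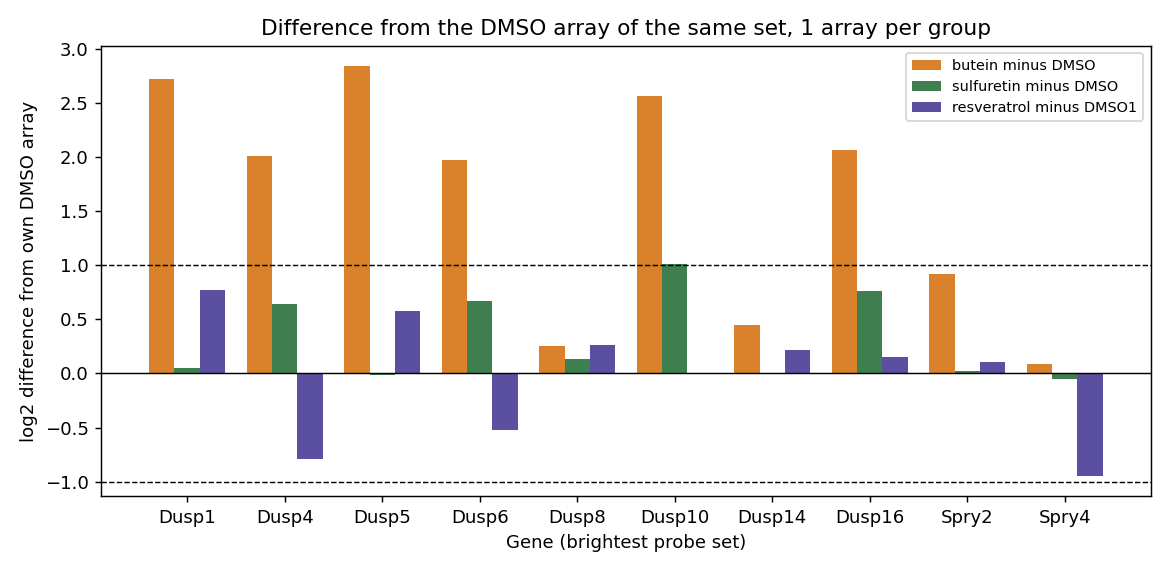
Bars give the log2 difference of the brightest probe set of each gene from the DMSO array of its own set, and dashed lines mark 2-fold. Butein bars pass the upper line for 6 genes, the sulfuretin bar of Dusp10 reaches it at 1.01, and no resveratrol bar reaches either line.

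With sulfuretin 1 of the 14 counted probe sets, 1417164_at of Dusp10, was 2-fold higher and none was 2-fold lower, against 0.192% and 0.0492% of all counted probe sets. That value, a log2 difference of 1.01, sat on the criterion and was 0.91 on a joint quantile scale of the 5 arrays. At 1.5-fold, 4 of the 14 were higher, those of Dusp4, Dusp6, Dusp10 and Dusp16, and 0 were lower, against 1.29% and 0.524% of all. After the arrays were put on 1 scale and DMSO1 was taken as the control, these 4 differences were 0.07, 0.41, 0.65 and 0.67, so the Dusp4 difference nearly vanished. Dusp1 and Dusp5, the genes with the largest butein differences, had log2 differences of 0.05 and -0.02 with sulfuretin.

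With resveratrol none of the 14 counted probe sets reached 2-fold, against 0.0627% higher and 0.0537% lower of all counted probe sets. At 1.5-fold, Dusp1 was higher and Dusp4 and Spry4 (1445669_at) were lower, 1 and 2 of the 14, against 0.331% and 0.327% of all. By gene, Dusp1 held place 20 and Dusp5 place 44 from the top among 12439 counted genes, and Spry4 held place 11, Dusp4 place 14 and Dusp6 place 65 from the bottom. The ERK phosphatase genes thus lay on opposite sides, with Dusp5 at 0.58 and Dusp4 and Dusp6 at -0.79 and -0.52. With DMSO as control after joint quantile normalization the same signs held (Dusp1 0.84, Dusp5 0.41, Dusp4 -0.36, Dusp6 -0.38, Spry4 -1.35). With DMSO as deposited, on its other scale, Dusp4 (0.32) and Dusp6 (0.40) turned upward.

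**Figure D3:**
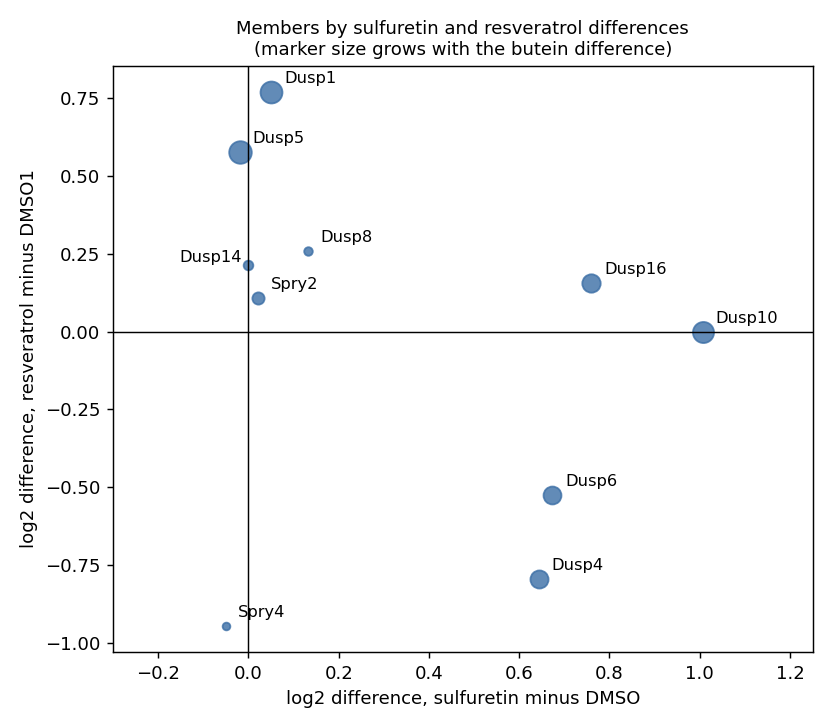
Each point is 1 gene by its brightest probe set, with the log2 difference of sulfuretin from DMSO on the horizontal axis and of resveratrol from DMSO1 on the vertical axis, and a marker that grows with the butein difference. Dusp1 and Dusp5 sit at the upper left, Dusp4 and Dusp6 at the lower right, Dusp10 and Dusp16 at the right near 0 on the vertical axis, and Spry4 at the bottom.

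The 2 solvent arrays give the only view of the spread between cultures. As deposited, DMSO1 exceeded DMSO by a median log2 difference of 0.65 over all counted probe sets, which is the gap between scales. After joint quantile normalization the difference had an SD of 0.66 over counted probe sets, and 11.0% of them lay past 2-fold. On that scale DMSO1 minus DMSO was 0.01 for Dusp1, 0.02 for Dusp16, 0.19 for Dusp6, 0.26 for Dusp10 (1417164_at), -0.26 for Dusp5 and 0.51 for Dusp4. The butein differences of these 6 genes on the same scale, from 1.84 for Dusp6 to 2.68 for Dusp5, were larger than any of those gaps. The sulfuretin difference of Dusp4, 0.58, was near its solvent gap of 0.51, and its resveratrol difference of -0.87 was larger and of the other sign. Spry2 (1436584_at) and Spry4 (1445669_at) had solvent gaps of -0.68 and -0.62, DMSO1 being the lower array, beside differences of 0.82 for Spry2 with butein and -0.73 for Spry4 with resveratrol. Dusp14 had a solvent gap of 1.10, larger than its differences with any compound.

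Butein is a chalcone and sulfuretin an aurone, in which the bridge between the rings is closed into a further ring, and both carry a catechol. Resveratrol is a stilbene that lacks a catechol. Only butein and sulfuretin share a control and a scale, so 1 pair was compared directly, and without doses in the labels it is not known whether the doses matched. With sulfuretin 6 of the 14 counted probe sets were at least 2-fold lower than with butein and none 2-fold higher, against 0.949% and 0.0895% of all counted probe sets. At 1.5-fold 7 were lower and 0 higher, against 2.89% and 0.913% of all. The log2 differences, sulfuretin minus butein, were -2.85 for Dusp5, -2.67 for Dusp1, -1.55 for Dusp10, -1.36 for Dusp4 and -1.30 for both Dusp6 and Dusp16. Spry2 was at -0.90, Dusp14 at -0.45, Spry4 at -0.14 and Dusp8 at -0.12 on their brightest probe sets. With 1 array per compound no interval can be given for any of them.

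Other genes of these pathways were taken from 7 lists, and each gene was read on its brightest probe set. Over all 12439 counted genes 2.03% were 2-fold higher and 0.297% 2-fold lower with butein, 0.193% and 0.0482% with sulfuretin, and 0.0804% and 0.0643% with resveratrol. Of the 66 counted genes of the lists, 12 were 2-fold higher and 0 lower with butein, and 0 passed either way with sulfuretin or resveratrol. Between sulfuretin and butein 11 were 2-fold lower with sulfuretin and 0 higher, against 1.04% and 0.0965% of all counted genes. The median over all counted genes was 0 with each compound.

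Of 14 listed transcripts known to be induced through ERK, 13 had a probe set annotated to that gene alone and 11 were counted. Among the 11 counted genes 10 were 2-fold higher with butein, with a median of 2.21, against 2.03% of all counted genes and a median of 0. Like the other lists, this one was chosen with earlier results of these data known, so the count is a description. Etv5 and Egr2, both among the 10, were under the floor in DMSO and counted through their higher arrays. Etv4 and Fosb were on the array but under the floor throughout, and each had equal values in DMSO and butein. Ier2, an immediate early gene, was 7.23-fold higher, from 64.6 to 468. Fosl1, which encodes the AP-1 subunit FRA1, was 7.05-fold higher, from 18.7 to 132. Phlda1 was 6.76-fold and Egr1, a zinc finger transcription factor gene, 6.05-fold higher, from 129 to 875 and from 272 to 1642. Egr3 was the exception among the 11 against DMSO, at 20.2 on all 3 arrays of the set. Between butein and DMSO 33.4% of all counted probe sets were equal. Against DMSO1 after joint quantile normalization, 9 of the 11 were 2-fold higher with butein and 0 lower. Of all probe sets counted on that scale, 5.88% were then 2-fold higher and 8.07% lower. Egr3 was among the 9, at 1.39, while Etv5 (0.94) and Junb (0.58) fell short of 2-fold. With sulfuretin the same list had a median of 0.04, with 6 genes higher and 2 lower, among them Phlda1 at 0.68, Ier3 at 0.66, Myc at 0.65, Fosl1 at 0.63 and Fos at -0.57. With resveratrol all 11 lay above DMSO1, against 32.9% of all counted genes, with a median of 0.41 and a largest difference of 0.70 for Junb. Against DMSO after joint quantile normalization only 6 lay above and 5 below, with a median of 0.17, against 45.0% of all counted genes above. The 5 below were Egr3 at -1.21, Fos at -0.77, Fosl1 at -0.67, Egr2 at -0.23 and Ier3 at -0.09, so the direction of this list with resveratrol depended on the control array. In sulfuretin against DMSO, the genes at 0.63 to 0.68 had values like those of Dusp4 and Dusp6. Ier2 (0.04) and Egr1 (-0.09) had values like those of Dusp1 and Dusp5. Against DMSO1 after joint quantile normalization, 9 of the 11 lay above and 2 below with sulfuretin. Their median was then 0.53, and 56.8% of all counted genes lay above. Fosl1 was at 1.46, Ier3 at 1.21 and Fos at 0.84, beside 0.07 for Dusp4 and 0.41 for Dusp6. The likeness to Dusp4 and Dusp6 thus depended on the control array.

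Of 3 other MAP kinase phosphatase genes 2 were counted. Dusp2, which encodes a nuclear phosphatase of ERK and p38, read 7.94 in DMSO, 33.6 with butein, 8.95 with sulfuretin, 13.4 in DMSO1 and 14.3 with resveratrol, a 4.24-fold higher level with butein from a value under the floor. Dusp7 read 23.1 in both DMSO and butein. Among the other Sprouty and Spred genes 3 of 5 were counted. Spred2, whose protein inhibits the step from Ras to RAF, read 28.0 in DMSO, 77.3 with butein, 45.4 with sulfuretin, 64.4 in DMSO1 and 68.4 with resveratrol, and was 2.76-fold higher with butein and 1.62-fold with sulfuretin. Spred1 had log2 differences of 0.79 and 0.31, and Spry1 0.11 with butein and 0 with sulfuretin.

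The kinases and receptors moved far less. None of 12 counted genes of the ERK cascade, 16 of the JNK and p38 cascade and 11 growth factor receptor genes was 2-fold higher or lower with any compound. Their medians with butein were 0.09, 0 and -0.08. The largest values with butein were 0.83 for Map2k3, which encodes a p38-activating kinase, and -0.84 for the receptor gene Egfr (83.0 in DMSO, 46.4 with butein, 62.6 with sulfuretin). Among 11 counted atypical dual specificity phosphatase genes, which mostly lack the kinase-binding domain, none passed 2-fold, with a median of -0.07 with butein and a range from -0.51 (Dusp11) to 0.22 (Dusp12).

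**Figure D4:**
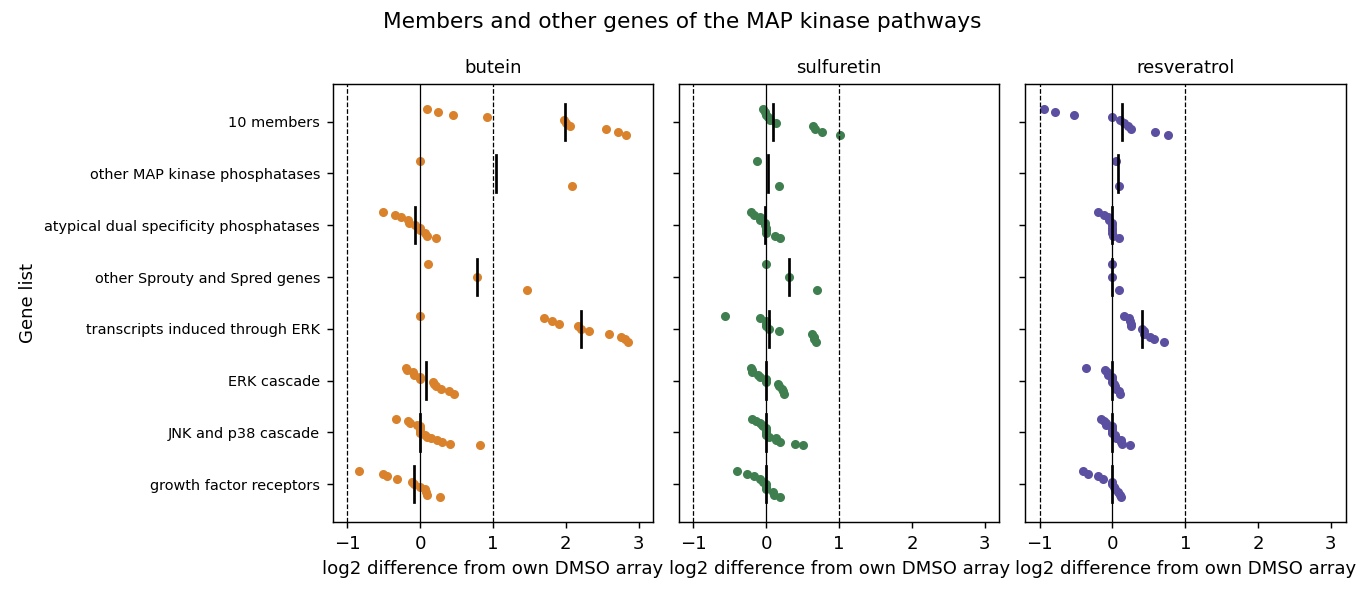
Each point is the log2 difference of 1 counted gene from the DMSO array of its own set, by list, with the list median as a black bar and 2-fold as dashed lines. With butein the 10 genes and the transcripts induced through ERK have medians of 1.99 and 2.21, while the cascades, receptors and atypical phosphatases lie around 0, and the sulfuretin and resveratrol panels show smaller spreads.

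The genes most like 2 of the 10 were sought among 11809 counted genes with ordinary names, by Euclidean distance over the 3 log2 differences, 1 per compound. Closest to Dusp5, which had the largest butein difference, were Ier2 (distance 0.09), the stress transcription factor gene Ddit3 (0.19) and Dusp1 (0.23). Closest to Spry4, which had the smallest, were Ptk2b (0.32), Cables1 (0.33) and Tshr (0.35), all equal in DMSO and butein and lower with resveratrol by log2 differences of -0.64, -0.63 and -0.61. Equal values in DMSO and butein held for 33.4% of all counted probe sets. A distance over 3 differences from 5 arrays is a description and carries no error.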

How the data were processed

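Total RNA of C3H10T1/2 adipocytes was hybridised to Affymetrix arrays, 1 for each of 5 groups. The authors processed the arrays with RMA, per the submitters' processing notes; its version, its options and a genome build are not stated there. Deposited values were read as intensities, linear by their range, so log2 was taken with no pseudocount. Sorted values nearly coincide within 2 sets (DMSO, butein, sulfuretin; DMSO1, resveratrol), and differences were taken within a set. Of 45037 probe sets, 34945 name 1 gene, 932 several and 9160 none in the platform annotation. Symbols of the other genes were updated by gene ID through RefSeq (34741 probe sets matched). The floor was the 50th percentile of mean log2 over probe sets. Values within 1e-06 (log2) were called equal. Calls used a 2-fold criterion and no test, since 1 array per group limits the precision. The members and lists were chosen with earlier results of these data known. Genes were named by rule: all 10 members, up to 4 genes past 2-fold per list and compound, and the 3 genes nearest to 2 members; others, such as Egr3, Map2k3, Egfr, Spred1 and Dusp11, were named after their values were seen. Functions were tested on simulated data. Alternatives covered fold criteria, floors, scaling, control array, probe type and a pseudocount of 16. Python 3.11.15, numpy 2.4.6, pandas 2.3.3 and matplotlib 3.10.9 were used.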

Additional observations from a re-analysis of the deposited data

How the results depend on the processing

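No group has a replicate array, so no replicate could be left out. No paired analysis was possible because each group is 1 array and no replicate number is shared. With butein the count of member probe sets past 2-fold (6) lay between 5 and 8 over 12 alternatives, and none of those 6 changed sign. Against DMSO1 as deposited the 7 past 2-fold were 6 higher and 1 lower, the lower one being Dusp14 and the higher ones including 1421656_at of Spry2 (1.27) but not Dusp4. With sulfuretin the count of 1 became 4 at 1.5-fold and 0 at 3-fold, after joint quantile normalization, with 16 added to the intensity, and against the mean of both DMSO arrays after joint normalization. Against DMSO1 it was 3 after joint normalization and 2 as deposited. With resveratrol the count of 0 became 3 at 1.5-fold, 3 against DMSO after joint normalization, 6 against DMSO as deposited and 1 against the mean of both. Sulfuretin against butein gave 2 rather than 6 at 3-fold. The control-array alternatives for single genes and lists and the fold alternatives for lists were chosen after seeing the data. In the 7 pathway lists butein gave 21 rather than 12 genes against DMSO1 as deposited (9 higher, 12 lower). Sulfuretin gave 5 rather than 0 at 1.5-fold, 9 against DMSO1 after joint normalization, 10 as deposited and 1 against the mean of both. Resveratrol gave 1 at 1.5-fold, 8 against DMSO after joint normalization, 12 as deposited and 1 against the mean of both. Counts against the other DMSO array as deposited carry the gap between scales, since 28.7% of all counted probe sets were then 2-fold lower with butein. The other alternatives gave counts within 1.5 times those reported. Levels near the floor, as for Spry4, Dusp14 and the dimmer probe sets of Dusp8, Dusp10 and Spry2, limit what can be read from them.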
